A study of Rattus norvegicus with 12 samples.

Results

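The genes described here are 75 whose products take part in removing introns from pre-mRNA, among 17337 rows of a gene count table from rat brain. They were chosen by symbol: every row named as an SR protein (Srsf), an hnRNP, a small nuclear ribonucleoprotein (Snrnp, Snrpa to Snrpg), a subunit of SF3a or SF3b, Srek1 or Srek1ip1, a Luc7-like protein, the kinases Clk1 to Clk4, or a numbered pre-mRNA processing factor (Prpf). The rule used names only, and all 75 passed the filter on low counts that left 12850 genes to test. Snrpn, the neuronal paralogue of Snrpb, fell outside the rule. RNA was sequenced from the brains of male Sprague-Dawley rats labelled as aged 60 postnatal days, in 4 groups of 3 libraries. Sham rats were the controls of the operation and carried no ligation. BDL rats had the bile duct ligated and were kept for 4 weeks, a model of cirrhosis with hepatic encephalopathy. AAV-GFP and AAV-VEGFC rats were also ligated for 4 weeks and received 20 µl of an adeno-associated virus coding for green fluorescent protein or for the lymphatic growth factor VEGFC into the cisterna magna, the fluid space behind the cerebellum. The labels record no injection for the sham and BDL rats. No source used here gives the serotype or promoter of the vectors. A comparison of AAV-GFP with BDL therefore takes in the virus, its cargo, the injection and any difference in handling, which cannot be told apart.

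Splicing is carried out by the spliceosome, which is built on each intron from small nuclear RNAs and their proteins: the U1 particle reads the start of the intron, the U2 particle with SF3a and SF3b reads the branch point, and a preformed tri-snRNP then joins. SR proteins bind exons and recruit these particles, the CLK kinases phosphorylate SR proteins in the nucleus, and hnRNPs coat the transcript and often oppose SR proteins. Many of these genes are known to control their own messages by keeping an intron or including a poison exon, and CLK1 and CLK4 transcripts are known to be held in the nucleus with introns retained.

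Promoter sequences are shown for the 4 members with the largest falls that had a single annotated start, and for Srsf5, which lay above BDL in the AAV-VEGFC rats. Each is the 150 bases before the RefSeq start in the GRCr8 build, 5′ to 3′ on the strand of the gene, with capitals for matches to the motifs searched.
Clk1, chr9:67453181-67453330, minus strand: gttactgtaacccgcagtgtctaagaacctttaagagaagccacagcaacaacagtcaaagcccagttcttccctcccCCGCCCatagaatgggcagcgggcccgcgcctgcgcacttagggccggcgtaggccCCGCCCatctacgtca
Snrnp70, chr1:105012852-105013001, minus strand: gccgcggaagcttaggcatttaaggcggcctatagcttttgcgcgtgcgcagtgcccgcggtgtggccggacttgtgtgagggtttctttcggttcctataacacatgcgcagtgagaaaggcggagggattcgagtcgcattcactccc
Luc7l3, chr10:79773430-79773579, minus strand: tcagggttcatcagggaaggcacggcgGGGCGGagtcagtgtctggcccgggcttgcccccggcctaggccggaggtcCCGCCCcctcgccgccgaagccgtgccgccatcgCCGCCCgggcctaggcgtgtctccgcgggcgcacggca
Srek1, chr2:36618879-36619028, minus strand: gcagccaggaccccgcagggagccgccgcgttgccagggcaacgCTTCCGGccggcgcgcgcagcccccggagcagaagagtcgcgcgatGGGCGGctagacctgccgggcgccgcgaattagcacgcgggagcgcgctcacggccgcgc
Srsf5, chr6:106336606-106336755, plus strand: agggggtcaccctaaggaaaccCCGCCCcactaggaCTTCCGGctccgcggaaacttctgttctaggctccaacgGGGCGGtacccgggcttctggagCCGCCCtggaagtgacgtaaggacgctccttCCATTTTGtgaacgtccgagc
The motifs searched for were the CREB site TGACGTCA, the NRF1 palindrome, the GC box GGGCGG of the SP family, and the ETS core CCGGAAG. The search also took the box of NF-Y, CCAAT, then the TATA box, as TATAAA, and the YY1 core CCATTTTG. Each was sought on both strands of the window from 250 bases before to 50 after the start, so a capital run can be the reverse complement of the letters given here. CCATTTTG was added after the sequences had been seen. The Srsf5 stretch held GC boxes, an ETS match and CCATTTTG close to the start, whereas the Snrnp70 stretch held none of the motifs.

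Windows were matched by symbol for 72 of the 75 members. CCATTTTG stood in 8 of the 72, against 1.72% of 27457 genes in the promoter table and 1.64% of the 10608 genes with counts and a window. The 8 were Clk1, Clk4, Luc7l3, Srsf1 and Srsf2, which were lower in the AAV-GFP rats, and Hnrnpc, Hnrnpul1 and Srsf5, which were not called lower there. Because CCATTTTG was picked after member sequences had been seen, its share and this split are not independent of that choice. The ETS letters stood in 23 of 72 members, against 14.99% of genes with counts. They were in 2 of the 18 members called lower that had a window and in 21 of the 54 others. A gene was counted once, if any of its windows held the letters. Genes with more annotated starts therefore had more windows searched. The GC box was in 43 of 72 members and in 58.5% of genes with counts. These matches describe letters in a window and were not tested as binding sites.

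The libraries held 40296297 to 51669067 counts. The tissue is called brain in the sample labels and middle brain in the series text. Slc17a7, a marker of cortical and hippocampal excitatory neurons, was at 1249 to 2029 CPM, while Th, which marks midbrain dopamine neurons, was at 0.652 to 1.70 CPM. CPM is a read count scaled to library size, after normalisation by trimmed mean of M values (TMM). The libraries also differed in ways that touch the results. The ribosomal RNA gene Rn18s took 0.137% to 0.306% of counts in the 6 libraries without vector and 0.430% to 1.16% in the 6 with vector. AAV-VEGFC 1 gave 2.83% of its counts to ribosomal protein genes, against 1.08% to 1.57% elsewhere. Sham 2, AAV-GFP 1 and AAV-VEGFC 1 stood apart from their groups, the first by choroid plexus genes and the next by hypothalamic genes, so the counts below are also given without these 3. The labels number the libraries but tie none to a named animal, so a p-value measures the spread between libraries, which may be technical in part. Levels are compared only within a gene, because transcript length was not taken into account. In bulk tissue, fewer cells of a type and less RNA per cell cannot be told apart.

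Summed together, the 75 genes kept a nearly fixed share of counts in the rats without vector and a lower one in the rats with it. Their share was 0.863% to 0.882% over the 6 libraries without vector and 0.704% to 0.752% over the 6 vector libraries, with no overlap. Such a sum is weighted towards rows with many counts. In AAV-GFP against BDL 31 members had positive and 44 negative log2 fold changes, in AAV-VEGFC against BDL 30 and 45. The members varied less within groups than all genes did, at the median. Their median coefficient of variation over the 3 libraries was 4.01% in sham, 3.56% in BDL, 4.60% in AAV-GFP and 12.8% in AAV-VEGFC. Over all tested genes it was 5.87%, 6.31%, 8.57% and 17.2%.

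**Figure D1:**
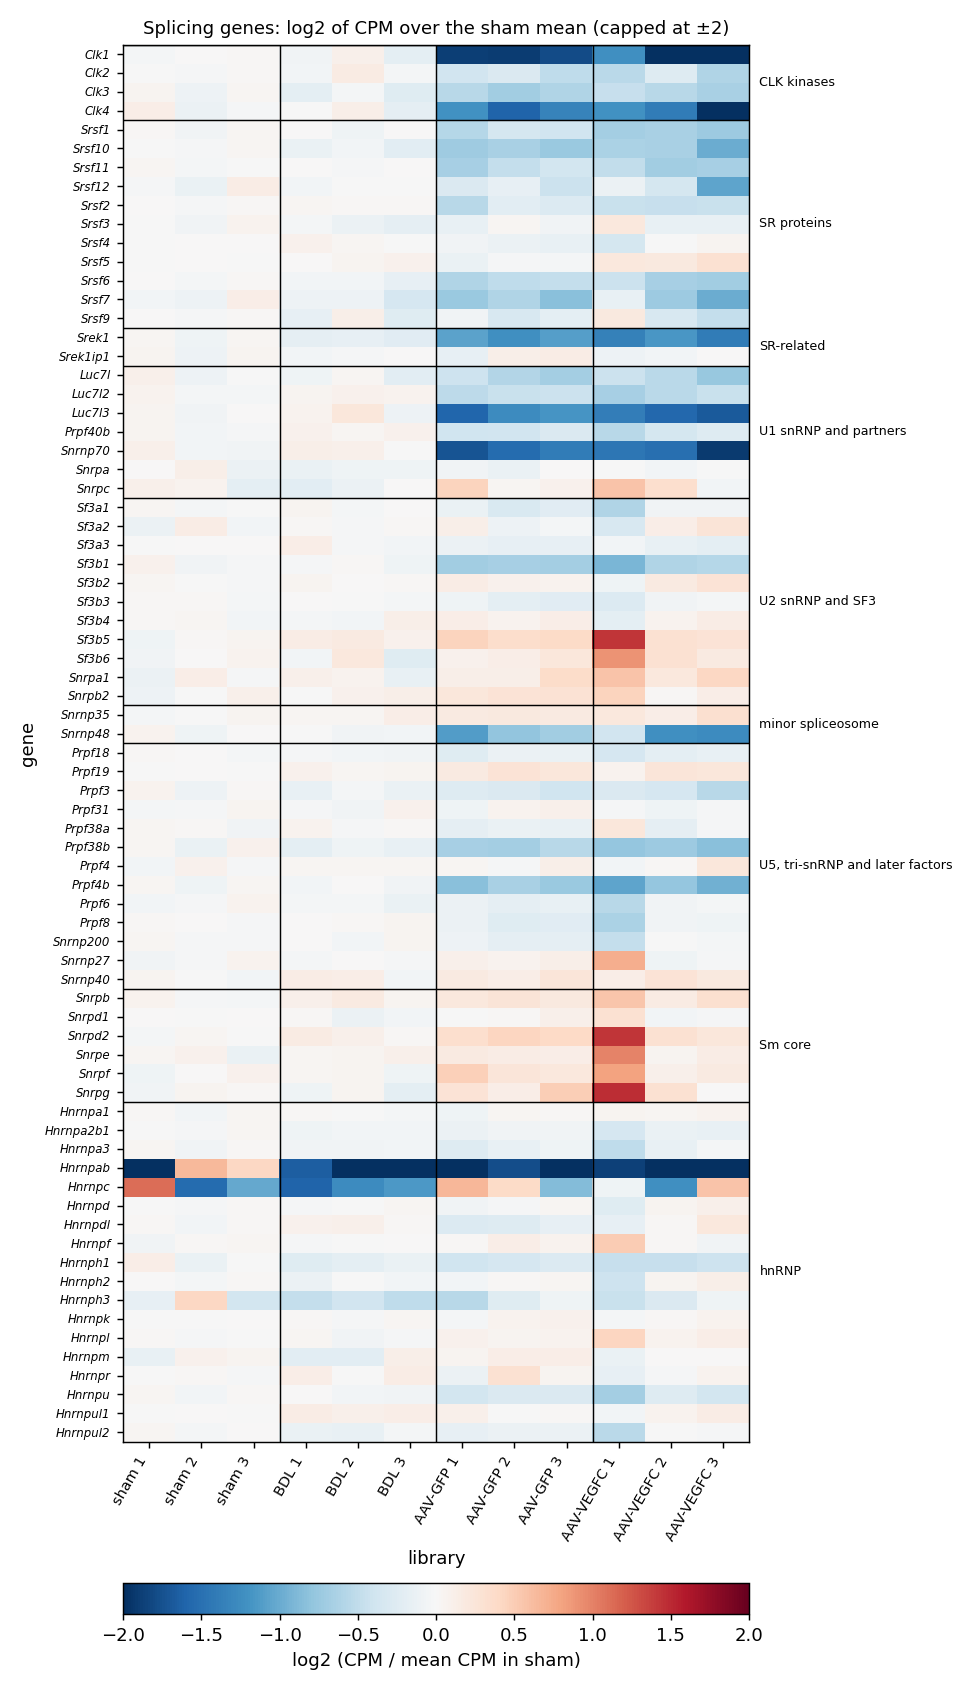
Each row is a gene, for all but 1 of the 75, grouped by role, and each column 1 of the 12 libraries. Colour gives the log2 of CPM over the mean CPM of the 3 sham libraries, blue for lower and red for higher, capped at 2 either way. Clk1, Clk4, Snrnp70, Luc7l3 and Srek1 are blue in all 6 vector libraries and pale in sham and BDL. Clk2 and Clk3 are fainter in the vector libraries, while Hnrnpab and Hnrnpc vary between libraries of the same group.

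Ligation alone moved no member past the threshold. In BDL against sham, edgeR's quasi-likelihood test with Benjamini-Hochberg adjustment over all 12850 genes called 0 of 75 members at an adjusted p under 0.05, against 0.109% of all genes (0.0156% lower and 0.0934% higher). At an unadjusted p under 0.05 there were 4 members (5.9% of all genes). DESeq2 and limma voom also called 0, where they called 108 and 347 genes in all, with 5 and 9 members at the unadjusted level. The groups stood apart with BDL lower for 7 members and with BDL higher for 5, against 12.4% and 12.6% of all genes. Clk1 lay at 117, 121 and 122 CPM in sham and 114, 129 and 105 in BDL. Srek1, an SR-related regulator of splice site choice, was at 49.5, 45.03 and 49.6 CPM in sham and 42.4, 42.7 and 40.9 in BDL, without overlap (log2 fold change -0.19 ± 0.08 (SE), adjusted p = 0.8). Hnrnph1, a regulator that binds runs of G, was likewise lower without overlap, at 227, 189.7 and 208 CPM and then 177, 183 and 189 (-0.19 ± 0.07, adjusted p = 0.792). Neither difference passed the adjusted threshold.

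The smallest p among members belonged to Hnrnpab, at 1.43, 23.6 and 20.2 CPM in sham and 4.79, 1.08 and 1.005 in BDL (-2.72 ± 0.93, adjusted p = 0.667). Sham 1 lay inside the BDL range, so the groups overlapped. Hnrnpc was also scattered, at 16.8, 2.69 and 3.82 CPM in sham, 2.58, 3.27 and 3.5 in BDL, 12.3, 10.1 and 4.25 in AAV-GFP and 7.36, 3.33 and 11.6 in AAV-VEGFC. Both are abundant nuclear proteins. Whether reads shared with near-identical copies were split between rows was not tested, and their values are uncertain. Hnrnpab overlaps the gene Phykpl in the RefSeq annotation, whose part was not tested either. Hnrnph3, at 5.36, 7.99 and 4.68 CPM in sham and 4.31, 4.63 and 4.24 in BDL, had an adjusted p of 0.834.

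With vector, members of most roles fell, among them all 4 CLK kinases, 5 of 11 SR proteins and 5 of 8 genes of the U1 particle and its partners in the AAV-GFP rats. In AAV-GFP against BDL, 19 of 75 members (25.3%) were called and all 19 were lower. The background was 6.19% of all genes called, 5.2% lower and 0.988% higher. In AAV-VEGFC against BDL, 21 members (28%) were called and all were lower, against 9.93% of all genes called, 7.02% lower and 2.91% higher. The groups stood apart with AAV-GFP lower for 36 members and higher for 16, where all genes gave 20% and 18.2%. For AAV-VEGFC the counts were 30 and 8, against 18.3% and 14.6%. Median log2 fold changes of the 75 were -0.08 and -0.07, against 0.01 and 0.0045 over all tested genes. Both comparisons use the same 3 BDL libraries.

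The 19 and 21 counts were the same when Rn18s, Rn45s and the 20 most abundant genes were left out. Without the 3 libraries that stood apart they were 30 (27 lower, 3 higher) and 29 (24 lower, 5 higher). All genes called in that fit were 3646 (2009 lower, 1637 higher) and 3123 (1749 lower, 1374 higher). The split also changed with the tool. DESeq2 called 21 members lower and 1 higher for AAV-GFP and 23 lower and 6 higher for AAV-VEGFC. Over all genes it called 1046 lower and 439 higher, then 1308 lower and 1054 higher. Voom called 32 members lower and 8 higher, then 25 lower and 3 higher. Over all genes voom called 2492 lower and 2195 higher, then 1482 lower and 1006 higher. Fitting only the 2 groups compared gave 27 members for AAV-GFP (24 lower, 3 higher) and 12 for AAV-VEGFC, all lower. Over all genes that fit called 2023 (1223 lower, 800 higher) and 330 (301 lower, 29 higher). Single members called by an alternative below come from these totals. Across 15 alternatives, 15 of the 19 members stayed called in every setting for AAV-GFP and 12 of the 21 for AAV-VEGFC.

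**Figure D2:**
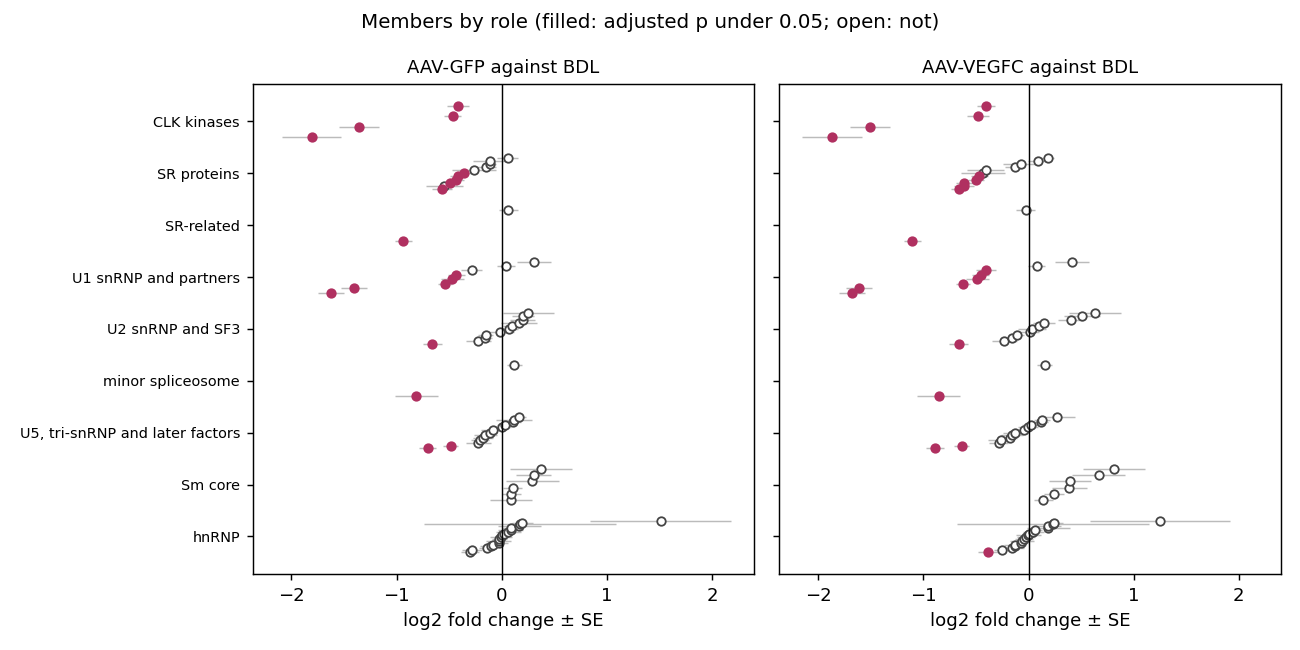
Points are log2 fold changes of the 75 members with standard errors as bars, in rows by role, for AAV-GFP against BDL on the left and AAV-VEGFC against BDL on the right. Filled points passed an adjusted p of 0.05 and all lie left of 0. The 4 CLK kinases are all filled, and the 6 Sm core genes are all open and right of 0.

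All 4 CLK kinases, the nuclear kinases that load phosphate onto SR proteins, were lower with either vector. With AAV-GFP 5.2% of all genes were called lower, and with AAV-VEGFC 7.02%. Clk1 was at 117, 121 and 122 CPM in sham, 114, 129 and 105 in BDL, 32.4, 32.2 and 34.6 in AAV-GFP and 51.2, 26.5 and 17.7 in AAV-VEGFC. All 6 vector libraries lay below all 6 without vector. AAV-GFP held 28.6% of the BDL mean (log2 fold change -1.81 ± 0.28, adjusted p = 0.00304) and AAV-VEGFC 27.4% (-1.87 ± 0.28, adjusted p = 0.00214). Within AAV-VEGFC the libraries spread widely, with replicate 1 high and replicate 3 low. Clk4, its close paralogue, was at 32.7, 27.5 and 29.4 CPM in sham, 29.5, 32.5 and 26.5 in BDL, 12.9, 9.82 and 11.8 in AAV-GFP and 12.9, 11.3 and 7.1 in AAV-VEGFC. It fell by a similar measure, -1.36 ± 0.19 with AAV-GFP (adjusted p = 0.00158) and -1.50 ± 0.19 with AAV-VEGFC (adjusted p = 0.00076), again without overlap.

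The other two kinases fell less. Clk2 was at 28.03, 27.99 and 28.9 CPM in sham, 27.3, 31.5 and 27.5 in BDL, 21.7, 23.3 and 19.9 in AAV-GFP and 19.4, 23.8 and 18.7 in AAV-VEGFC. Its groups did not overlap, with log2 fold changes of -0.41 ± 0.10 (adjusted p = 0.0399) and -0.48 ± 0.10 (adjusted p = 0.0151). Its AAV-GFP call was lost whichever of the 6 libraries was left out (adjusted p 0.0649 to 0.159), and its AAV-VEGFC call without BDL 2 (0.0658) or with those groups fitted alone (0.11). A microRNA row, Mir3541, overlaps Clk2, and without known strand handling their reads cannot be told apart. Clk3 was at 54.7, 48.8 and 54.1 CPM in sham, 46.1, 51.3 and 44.3 in BDL, 35.6, 32.3 and 34.7 in AAV-GFP and 37.98, 35.7 and 33.5 in AAV-VEGFC. The vector libraries were all lower, with changes of -0.47 ± 0.08 (adjusted p = 0.00628) and -0.40 ± 0.08 (adjusted p = 0.0109), the second at 0.0837 with those groups alone.

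**Figure D3:**
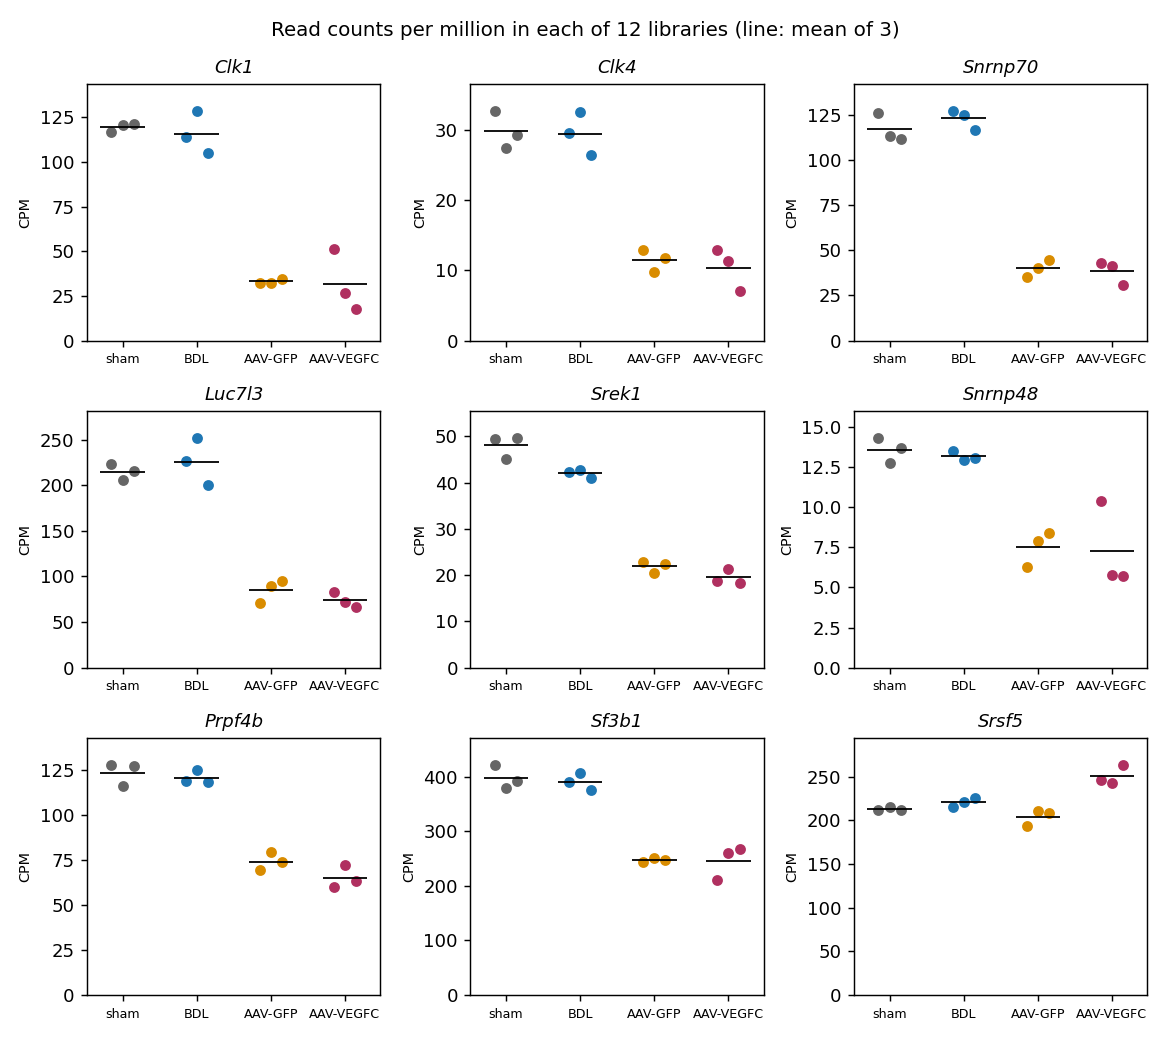
CPM in each of the 12 libraries for 9 members, with a line at the mean of the 3 libraries of a group and axes from 0. In the first 8 panels, from Clk1 to Sf3b1, all vector libraries lie below all BDL libraries, whereas Srsf5 is highest in AAV-VEGFC.

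Among the 11 SR proteins, which bind exons through RNA recognition motifs and recruit the spliceosome, 5 fell with AAV-GFP and the same 5 fell with AAV-VEGFC: Srsf1, Srsf2, Srsf6, Srsf10 and Srsf11. The share of all genes called lower was 5.2% and 7.02%. Srsf1, the founding member, was at 245, 228 and 247 CPM in sham, 241, 227 and 242 in BDL, 161, 187 and 183 in AAV-GFP and 150.4, 153 and 145 in AAV-VEGFC. Every vector library was below every BDL library (-0.42 ± 0.07, adjusted p = 0.0062, and -0.66 ± 0.07, adjusted p = 0.000352). Srsf1 overlaps the gene Vezf1 in the RefSeq annotation, so some reads could belong to either. Srsf2, an SR protein of nuclear speckles, was at 147, 145 and 149 CPM in sham, 150.2, 149 and 149 in BDL, 100.2, 127 and 121 in AAV-GFP and 108, 106 and 108 in AAV-VEGFC. The BDL values were tightly bunched and all vector values lower (-0.36 ± 0.08, adjusted p = 0.0231, and -0.47 ± 0.08, adjusted p = 0.00426). Its AAV-GFP call was lost without BDL 1, BDL 2, BDL 3 or AAV-GFP 3 (adjusted p 0.0574 to 0.0843).

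Srsf11, an SR-related partner of Srrm4 in neuronal microexon splicing, was at 116, 109 and 112 CPM in sham, 112, 110.2 and 112 in BDL, 70.9, 80.4 and 87.1 in AAV-GFP and 79.7, 69.3 and 70.4 in AAV-VEGFC. With no overlap, it changed by -0.49 ± 0.08 (adjusted p = 0.00498) and -0.61 ± 0.08 (adjusted p = 0.00112). Srsf10, a splicing repressor when dephosphorylated, was at 25.6, 25.2 and 26.4 CPM in sham, 23.4, 24.8 and 22.2 in BDL, 15.7, 16.4 and 15.4 in AAV-GFP and 16.6, 16.3 and 12.96 in AAV-VEGFC. Its vector libraries were all lower (-0.57 ± 0.10, adjusted p = 0.00538, and -0.62 ± 0.10, adjusted p = 0.00258). Srsf6 was at 123, 118 and 124 CPM in sham, 117, 117 and 108 in BDL, 80.5, 85.6 and 87.1 in AAV-GFP and 90.6, 76.9 and 74.9 in AAV-VEGFC. It did not overlap either (-0.44 ± 0.08, adjusted p = 0.00742, and -0.50 ± 0.08, adjusted p = 0.0027). With the AAV-VEGFC and BDL groups alone, Srsf10 and Srsf6 missed the threshold narrowly (adjusted p = 0.0532 and 0.0504).

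The other 6 SR proteins were not called by edgeR. Srsf7 was at 62.4, 60.5 and 70.99 CPM in sham, 60.2, 60.5 and 51.4 in BDL, 38.8, 42.5 and 36.4 in AAV-GFP and 58.4, 39.01 and 32.5 in AAV-VEGFC. AAV-GFP lay below BDL throughout, but AAV-VEGFC 1 reached into the BDL range (-0.55 ± 0.18, adjusted p = 0.0973, and -0.41 ± 0.18, adjusted p = 0.152). DESeq2, voom, the fit of AAV-GFP and BDL alone and the fit without the 3 libraries that stood apart called the first of these. Voom, the fit without those 3 and the fit without AAV-VEGFC 1 called the second. Srsf3, the smallest SR protein, was at 159.5, 153 and 168 CPM in sham, 156, 147 and 142 in BDL, 145, 165 and 153 in AAV-GFP and 186, 144 and 145 in AAV-VEGFC, overlapping BDL in both vector groups (0.06 ± 0.10, adjusted p = 0.796, and 0.09 ± 0.10, adjusted p = 0.591). The sign of the second turned without AAV-VEGFC 1, to -0.04. Srsf4 had log2 fold changes of -0.15 and -0.13, Srsf9 of -0.11 and -0.08, and Srsf12, the least counted, of -0.27 and -0.43. Voom and the fit without the 3 libraries that stood apart called Srsf4 with AAV-GFP, and voom called Srsf12 with AAV-VEGFC.

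Srsf5 was at 212, 215 and 212 CPM in sham, 215, 221 and 226 in BDL, 194, 210.2 and 208 in AAV-GFP and 246, 243 and 263 in AAV-VEGFC. AAV-GFP was lower and AAV-VEGFC higher than BDL in every library, yet neither difference was called by edgeR (-0.11 ± 0.06, adjusted p = 0.345, and 0.18 ± 0.06, adjusted p = 0.0811). DESeq2, voom and the fits without AAV-VEGFC 1 or without the 3 libraries that stood apart called the AAV-VEGFC difference. Of the SR-related pair, Srek1 was at 49.5, 45.03 and 49.6 CPM in sham, 42.4, 42.7 and 40.9 in BDL, 22.8, 20.5 and 22.5 in AAV-GFP and 18.8, 21.4 and 18.3 in AAV-VEGFC. Its vector libraries were all lower, at 52.2% of the BDL mean with AAV-GFP (-0.94 ± 0.08, adjusted p = 8.33e-05) and 46.4% with AAV-VEGFC (-1.11 ± 0.08, adjusted p = 2.7e-05). Its binding partner Srek1ip1 did not pass the test (0.06 ± 0.09, adjusted p = 0.754, and -0.03 ± 0.09, adjusted p = 0.868).

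The U1 particle and its partners, which recognise the first bases of an intron, gave 5 of 8 members lower with AAV-GFP and 6 of 8 with AAV-VEGFC. Of all genes, 5.2% and 7.02% were called lower. Snrnp70, the U1 protein that contacts the U1 RNA and SR proteins, was at 126, 113 and 112 CPM in sham, 127, 125 and 117 in BDL, 35.5, 40.4 and 44.4 in AAV-GFP and 42.9, 41.2 and 31.00 in AAV-VEGFC. The 6 vector libraries lay far below the other 6. AAV-GFP held 32.5% of the BDL mean (-1.62 ± 0.12, adjusted p = 4.37e-05) and AAV-VEGFC 31.2% (-1.68 ± 0.12, adjusted p = 2.7e-05), the smallest adjusted p of any member in the first comparison. The other proteins specific to U1 were not called by edgeR. Snrpa was at 14.8, 15.96 and 13.6 CPM in sham, 13.5, 13.99 and 13.9 in BDL, 14.1, 13.5 and 14.9 in AAV-GFP and 14.8, 14.2 and 14.7 in AAV-VEGFC. Its AAV-GFP values overlapped BDL and its AAV-VEGFC values lay just above (0.04 ± 0.08, adjusted p = 0.83, and 0.08 ± 0.08, adjusted p = 0.578). Snrpc was at 15.7, 15.3 and 12.8 CPM in sham, 12.6, 13.5 and 14.6 in BDL, 19.8, 15.1 and 15.5 in AAV-GFP and 21.8, 18.5 and 14.1 in AAV-VEGFC (0.31 ± 0.16, adjusted p = 0.321, and 0.41 ± 0.16, adjusted p = 0.119). Without AAV-VEGFC 3 the second was called.

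The 3 Luc7-like proteins, mammalian relatives of a yeast U1 component that tune the choice of 5′ splice sites, all fell. Luc7l3 was at 223, 205 and 215 CPM in sham, 226, 251 and 200.0 in BDL, 71.4, 89.5 and 94.9 in AAV-GFP and 82.4, 72.1 and 66.6 in AAV-VEGFC. The highest vector library was far below the lowest of the others, and the vector groups kept 37.8% and 32.6% of the BDL mean (-1.40 ± 0.12, adjusted p = 8.54e-05, and -1.61 ± 0.12, adjusted p = 3.37e-05). Luc7l2, whose loss is known from myeloid disease, was at 90.7, 84.2 and 84.7 CPM in sham, 90.2, 92.1 and 90.9 in BDL, 60.02, 63.6 and 64.3 in AAV-GFP and 54.7, 59.3 and 63.5 in AAV-VEGFC. It fell by less and without overlap (-0.54 ± 0.07, adjusted p = 0.0008, and -0.62 ± 0.07, adjusted p = 0.00033). Luc7l was at 31.4, 27.2 and 28.9 CPM in sham, 27.5, 29.9 and 25.2 in BDL, 21.8, 19.5 and 18.3 in AAV-GFP and 21.6, 20.1 and 17.3 in AAV-VEGFC. The groups stood apart (-0.47 ± 0.11, adjusted p = 0.0257, and -0.49 ± 0.11, adjusted p = 0.0169). Its AAV-GFP call was lost without BDL 1, BDL 2, AAV-GFP 2 or AAV-GFP 3 (adjusted p 0.0851 to 0.113), and its AAV-VEGFC call without BDL 1 or BDL 2 (0.0614 to 0.0639) or with those groups alone (0.0922).

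Prpf40b, which bridges U1 and the branch point, was at 61.7, 57.2 and 58.4 CPM in sham, 62.6, 61.00 and 62.8 in BDL, 44.8, 45.2 and 48.4 in AAV-GFP and 40.3, 46.1 and 49.6 in AAV-VEGFC. It was lower in every vector library (-0.43 ± 0.08, adjusted p = 0.00753, and -0.46 ± 0.08, adjusted p = 0.00441, the second 0.0755 with those groups alone). Prpf40b overlaps Mcrs1 and Fam186b, which could share its reads.

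Of 11 proteins of U2 and its SF3a and SF3b complexes, edgeR called 1 in each comparison, Sf3b1, a share near the 6.19% and 9.93% of all genes. With AAV-GFP voom also called Sf3a1, Sf3a3, Sf3b3, Sf3b5, Snrpa1 and Snrpb2. Fitting AAV-GFP and BDL alone called Sf3a1 and Sf3b5, and leaving out the 3 libraries that stood apart called Sf3a1, Sf3b3 and Sf3b5. With AAV-VEGFC DESeq2 added Sf3b6 and Snrpa1, voom added Sf3b2, and the fit without those 3 libraries added Sf3a2 and Sf3b2. In that comparison edgeR added Sf3a3 and Sf3b2 without AAV-VEGFC 1, Snrpa1 and Sf3b5 without AAV-VEGFC 2, and Sf3b5 and Sf3b6 without AAV-VEGFC 3. Sf3b1, the scaffold that clasps the branch point, was at 421, 381 and 393 CPM in sham, 391, 406 and 376 in BDL, 245, 250.3 and 247 in AAV-GFP and 210.3, 261 and 268 in AAV-VEGFC. The 3 AAV-GFP libraries agreed closely and all vector libraries lay below all BDL libraries (-0.66 ± 0.09, adjusted p = 0.00139, and -0.67 ± 0.09, adjusted p = 0.00112). Its direct partners gave other values. Sf3b2, the subunit beside it, was at 234, 227 and 224 CPM in sham, 238, 229.9 and 233 in BDL, 254, 244 and 239.5 in AAV-GFP and 214, 259.6 and 276 in AAV-VEGFC (0.07 ± 0.09, adjusted p = 0.67, and 0.10 ± 0.09, adjusted p = 0.489). Sf3b3 was at 100.3, 99.9 and 95.5 CPM in sham, 99.5, 97.6 and 96.1 in BDL, 92.5, 86.5 and 84.6 in AAV-GFP and 81.6, 93.9 and 95.5 in AAV-VEGFC, and Sf3a1 at 131, 124 and 126 CPM in sham, 132, 123 and 127 in BDL, 116, 103 and 108 in AAV-GFP and 83.6, 121 and 121 in AAV-VEGFC. Both were lower in every AAV-GFP library than in any BDL library, with log2 fold changes of -0.15 ± 0.07 (adjusted p = 0.25) and -0.22 ± 0.12 (adjusted p = 0.339). The remaining Sf3a2, Sf3a3, Sf3b4, Sf3b5, Sf3b6, Snrpa1 and Snrpb2 ranged from -0.16 to 0.25 with AAV-GFP.

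The minor spliceosome, which removes the rare introns of the U12 type, had 2 members. Snrnp48 was at 14.3, 12.7 and 13.7 CPM in sham, 13.5, 12.9 and 13.02 in BDL, 6.26, 7.85 and 8.39 in AAV-GFP and 10.4, 5.79 and 5.69 in AAV-VEGFC. Its vector libraries were all lower (-0.81 ± 0.21, adjusted p = 0.0416, and -0.86 ± 0.21, adjusted p = 0.025), with AAV-VEGFC 1 the nearest to BDL. The AAV-GFP call was lost whichever of the 6 libraries was left out (adjusted p 0.0836 to 0.126) and with the replicate number as a block (0.0758). The AAV-VEGFC call was lost without any 1 of the BDL libraries or AAV-VEGFC 3 (0.0582 to 0.0832) and with those groups alone (0.124). Snrnp35, another protein of the same particle, was at 21.7, 22.1 and 23.1 CPM in sham, 22.8, 22.8 and 24.5 in BDL, 25.2, 25.5 and 25.4 in AAV-GFP and 25.8, 24.4 and 27.9 in AAV-VEGFC and was not called (0.12 ± 0.07, adjusted p = 0.383, and 0.15 ± 0.07, adjusted p = 0.175).

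Among 13 proteins of U5, the tri-snRNP and later steps, Prpf4b and Prpf38b fell in both comparisons, where 5.2% and 7.02% of all genes were called lower. Prpf4b, a kinase that phosphorylates tri-snRNP proteins, was at 128, 116 and 127 CPM in sham, 119, 125 and 118 in BDL, 69.2, 79.2 and 73.8 in AAV-GFP and 59.8, 72.3 and 63.6 in AAV-VEGFC. Vector and BDL libraries did not overlap (-0.70 ± 0.08, adjusted p = 0.000525, and -0.89 ± 0.08, adjusted p = 0.000102). Prpf38b, a relative of the activation factor Prpf38a with an arginine and serine rich tail, was at 70.05, 62.2 and 72.2 CPM in sham, 59.6, 64.2 and 61.6 in BDL, 43.2, 42.7 and 46.4 in AAV-GFP and 39.8, 41.3 and 38.3 in AAV-VEGFC, also without overlap (-0.49 ± 0.07, adjusted p = 0.00236, and -0.63 ± 0.07, adjusted p = 0.000444). Prpf8 and Snrnp200, of the catalytic core, were not called by edgeR, but with AAV-GFP voom and the fit without the 3 libraries that stood apart called both. Fitting AAV-GFP and BDL alone also called Prpf8. Prpf8, the scaffold around the active site, was at 479.8, 476 and 465 CPM in sham, 475, 482 and 493 in BDL, 436, 402 and 405 in AAV-GFP and 306, 453 and 447 in AAV-VEGFC. It was below BDL in every vector library (-0.22 ± 0.12, adjusted p = 0.342, and -0.27 ± 0.12, adjusted p = 0.175), with AAV-VEGFC 1 much the lowest. Snrnp200, the helicase that unwinds the tri-snRNP, was at 269.7, 256 and 258 CPM in sham, 262, 252 and 270.0 in BDL, 244, 229.9 and 231 in AAV-GFP and 188, 260.4 and 254 in AAV-VEGFC (-0.15 ± 0.11, adjusted p = 0.454).

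Prpf19, a ubiquitin ligase of the activated spliceosome, was at 249, 252 and 247 CPM in sham, 265, 256 and 259 in BDL, 282, 301 and 290.5 in AAV-GFP and 261, 294 and 292 in AAV-VEGFC. AAV-GFP was above BDL in all 3 libraries (0.16 ± 0.06, adjusted p = 0.179), and DESeq2, voom and the fit without the 3 libraries that stood apart called it. With AAV-VEGFC voom and the fits without AAV-VEGFC 1 or without those 3 called it too. Prpf3, Prpf4, Prpf6, Prpf18, Prpf31, Prpf38a, Snrnp27 and Snrnp40 lay between -0.21 and 0.11 with AAV-GFP, none called there by edgeR. With AAV-GFP voom called Prpf3 and Prpf38a. With AAV-VEGFC DESeq2, voom and the fits without AAV-VEGFC 1 or without those 3 called Prpf3.

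Of the 6 Sm proteins among the members, which belong to the ring common to most spliceosomal snRNPs, edgeR called 0 in either comparison. All 6 log2 fold changes were positive in both. At an unadjusted p under 0.05 there were 0 with AAV-GFP and 4 with AAV-VEGFC, against 20.7% and 29.2% of all genes. DESeq2 called 0 and then Snrpd2 and Snrpg, and voom called Snrpd2, Snrpf and Snrpg with AAV-GFP and 0 with AAV-VEGFC. Snrpd2 was also called with AAV-GFP and BDL fitted alone and, in that comparison, without the 3 libraries that stood apart. In AAV-VEGFC against BDL edgeR called Snrpb and Snrpd2 without AAV-VEGFC 2, and Snrpd2 and Snrpg without AAV-VEGFC 3. With AAV-GFP, 5 of 6 lay above BDL without overlap, where 18.2% of all genes did. Snrpd2 was at 39.3, 41.6 and 40.4 CPM in sham, 45.3, 43.3 and 40.9 in BDL, 51.05, 54.6 and 53.1 in AAV-GFP and 109, 49.7 and 47.1 in AAV-VEGFC. AAV-GFP was above BDL throughout (0.29 ± 0.25, adjusted p = 0.555). For AAV-VEGFC the difference was 0.67 ± 0.25 (adjusted p = 0.109), and replicate 1 was more than 2 times the other AAV-VEGFC values. Snrpg was at 14.3, 15.6 and 15.3 CPM in sham, 14.2, 15.6 and 13.2 in BDL, 18.2, 16.4 and 21.2 in AAV-GFP and 42.1, 18.6 and 15.2 in AAV-VEGFC (0.38 ± 0.30, adjusted p = 0.516, and 0.81 ± 0.30, adjusted p = 0.101), with the same library far above the rest. Snrpf was at 12.9, 13.8 and 14.6 CPM in sham, 14.2, 14.3 and 12.98 in BDL, 19.1, 16.2 and 15.9 in AAV-GFP and 24.04, 14.7 and 15.5 in AAV-VEGFC (0.30 ± 0.16, adjusted p = 0.331). Snrpe was at 17.9, 18.4 and 15.8 CPM in sham, 17.9, 18.1 and 18.7 in BDL, 19.8, 19.3 and 19.1 in AAV-GFP and 34.6, 18.1 and 19.3 in AAV-VEGFC (0.09 ± 0.20, adjusted p = 0.84). Snrpb and Snrpd1 gave 0.11 and 0.09 with AAV-GFP.

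**Figure D4:**
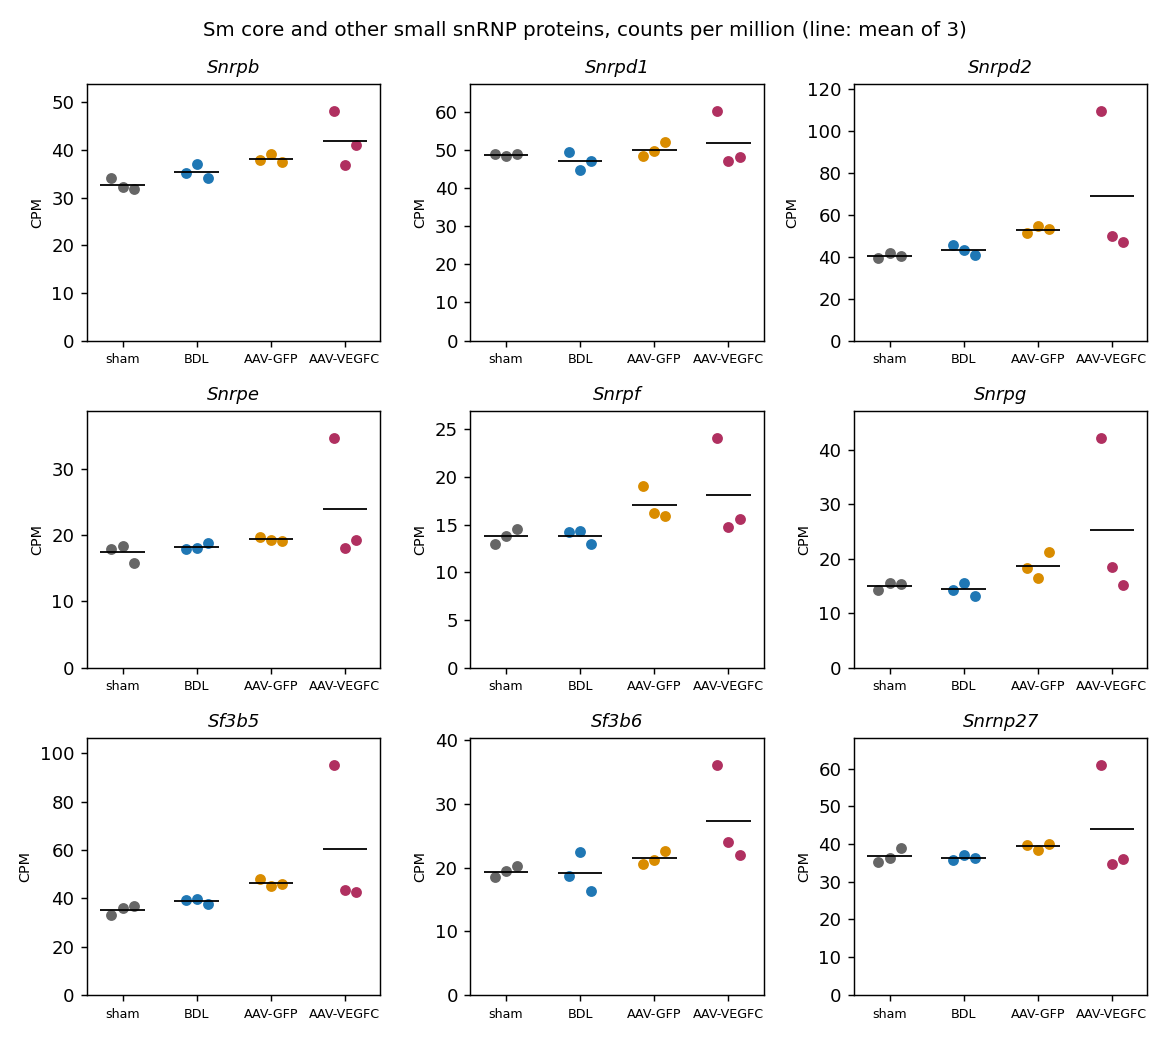
CPM in the 12 libraries for the 6 Sm core genes and for Sf3b5, Sf3b6 and Snrnp27, with the mean of each group as a line and axes from 0. The single high AAV-VEGFC point in each panel is replicate 1, and the AAV-GFP points for Snrpd2, Snrpf, Snrpg and Sf3b5 lie above all BDL points.

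The high values in AAV-VEGFC 1 reached beyond the Sm ring. Sf3b5, a small SF3b subunit, was at 33.2, 35.8 and 36.6 CPM in sham, 39.3, 39.8 and 37.6 in BDL, 48.02, 45.00 and 45.95 in AAV-GFP and 94.99, 43.5 and 42.5 in AAV-VEGFC, and Snrnp27, a small tri-snRNP protein, at 35.2, 36.4 and 38.8 CPM in sham, 35.8, 37.02 and 36.3 in BDL, 39.7, 38.5 and 39.9 in AAV-GFP and 60.8, 34.7 and 36.04 in AAV-VEGFC. AAV-VEGFC 1 lay at least 1.25-fold above every other vector library for 10 of 75 members, a share near the 13.2% of all genes. It lay as far below them for 4 members, against 9.27% of all genes. No other vector library was that far above for any member, and they were that far below for 0 to 3. The same library had the high ribosomal protein share given above, whose part in these values was not tested.

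The 18 hnRNPs, abundant proteins that package transcripts and often repress splice sites, gave 0 calls by edgeR with AAV-GFP and 1, Hnrnpu, with AAV-VEGFC, where 6.19% and 9.93% of all genes were called. At an unadjusted p under 0.05 there were 3 in each, against 20.7% and 29.2% of all genes. With AAV-GFP DESeq2 called Hnrnpdl, and voom called Hnrnpdl, Hnrnpm, Hnrnpu and Hnrnpul1. Fitting AAV-GFP and BDL alone called Hnrnpc, Hnrnpdl and Hnrnpu, and leaving out the 3 libraries that stood apart called Hnrnpdl and Hnrnpu. With AAV-VEGFC, beside Hnrnpu, DESeq2 called Hnrnpl and Hnrnph1 and voom called Hnrnph1. There edgeR also called Hnrnph1 without AAV-VEGFC 1 or with a filter of at least 1 CPM in 3 libraries, and Hnrnpl without AAV-VEGFC 2. Without the 3 libraries that stood apart it called Hnrnph1 and Hnrnph2. Hnrnpu, a nuclear matrix protein, was at 607, 569.7 and 604 CPM in sham, 598, 573 and 566 in BDL, 459, 486 and 486 in AAV-GFP and 371, 497 and 458 in AAV-VEGFC. All vector libraries lay below BDL (-0.28 ± 0.09, adjusted p = 0.114, and -0.39 ± 0.09, adjusted p = 0.0253). The call was lost without BDL 1, BDL 2 or BDL 3 (0.0648 to 0.0971) and with those groups alone (0.169). Hnrnpa2b1, a transport and splicing factor, was at 296, 293 and 308 CPM in sham, 282, 288 and 287 in BDL, 275, 284 and 285 in AAV-GFP and 238, 274 and 269.8 in AAV-VEGFC (-0.02 ± 0.07, adjusted p = 0.891, and -0.13 ± 0.07, adjusted p = 0.214). Hnrnph1 continued at 158, 166 and 173 CPM in AAV-GFP and 152, 150.5 and 157 in AAV-VEGFC, under BDL throughout (-0.14 ± 0.07, adjusted p = 0.316, and -0.26 ± 0.08, adjusted p = 0.0535).

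Hnrnpdl, a paralogue of Hnrnpd, was at 135, 128 and 135 CPM in sham, 142, 142 and 136 in BDL, 109.8, 112 and 118 in AAV-GFP and 119, 135 and 153 in AAV-VEGFC. AAV-GFP was below BDL in all libraries (-0.31 ± 0.09, adjusted p = 0.0611), while AAV-VEGFC overlapped it. Hnrnpc, scattered as above, gave 1.51 with AAV-GFP and Hnrnpab gave 0.18. Hnrnpa1, Hnrnpa3, Hnrnpd, Hnrnpf, Hnrnph2, Hnrnph3, Hnrnpl, Hnrnpm, Hnrnpr, Hnrnpul1 and Hnrnpul2 lay between -0.10 and 0.20 with AAV-GFP, none called there by edgeR. Hnrnpk, among the highest counted, was at 430.5, 430.2 and 434 CPM in sham, 439.9, 425 and 445 in BDL, 419, 453 and 459.8 in AAV-GFP and 419.9, 438 and 453 in AAV-VEGFC, with groups overlapping.

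Between the vectors no member passed the test. In AAV-VEGFC against AAV-GFP, edgeR called 0 of 75, against 0.00778% of all genes, and 4 members had an unadjusted p under 0.05 (4.37% of all genes). DESeq2 called 1, Srsf5, of 10 genes in all, and voom 0 of 1 gene, with 18 members at the unadjusted level. The groups stood apart with AAV-VEGFC lower for 5 and higher for 2, where all genes gave 2.77% and 3.29%. Srsf5 was higher in every AAV-VEGFC library than in any AAV-GFP library (0.30 ± 0.06, adjusted p = 0.857 by edgeR and 0.000137 by DESeq2). Srsf1 was lower without overlap (-0.25 ± 0.07, adjusted p = 0.948), and Prpf4b gave -0.18 ± 0.08 with overlap (adjusted p = 0.948). Hnrnpdl was above AAV-GFP in every library (0.26 ± 0.09, adjusted p = 0.948). Clk1, Clk4, Snrnp70 and Luc7l3 differed by -0.06 ± 0.28, -0.15 ± 0.19, -0.06 ± 0.12 and -0.21 ± 0.12.

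Leaving out the 3 libraries that stood apart gave 10 called members between the vectors, 5 higher and 5 lower, on 2 libraries a group: Hnrnpdl, Luc7l3, Prpf8, Sf3a1, Sf3a2, Snrnp48, Srsf1, Srsf2, Srsf5 and Srsf11. In that fit 1193 genes in all were called, against 1 with every library. Leaving out any single vector library gave 0 members.

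Other genes of the splicing machinery were called in the same comparisons. Of 44 other spliceosome and SR-related genes, 10 were lower with AAV-GFP and 13 with AAV-VEGFC, none higher, against 5.2% and 7.02% of all genes lower, with medians of -0.08 and -0.09. Pnn, an SR-like protein of nuclear speckles, was at 95.7, 87.1 and 99.5 CPM in sham, 89.7, 87.8 and 86.2 in BDL, 46.1, 49.6 and 52.97 in AAV-GFP and 47.9, 45.5 and 46.7 in AAV-VEGFC. All vector values were lower (-0.83 ± 0.07, adjusted p = 8.33e-05, and -0.91 ± 0.07, adjusted p = 3.62e-05). Srrm2, a scaffold of those speckles, changed by -0.72 ± 0.13 (adjusted p = 0.00726), and Rbm5, a regulator of apoptotic gene splicing, by -0.77 ± 0.13 (adjusted p = 0.00424). Srpk3, an SR protein kinase known mainly from muscle, was low throughout, at 3.58, 3.24 and 2.2 CPM in sham, 4.53, 4.02 and 2.67 in BDL, 1.15, 0.929 and 1.21 in AAV-GFP and 1.36, 0.678 and 0.835 in AAV-VEGFC, and lower with vector (-1.77 ± 0.31, adjusted p = 0.0062).

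Of 20 other hnRNP-like genes, 4 were lower and 1 higher in each comparison. Of all genes, 5.2% and 7.02% were called lower and 0.988% and 2.91% higher. Ddx17, an RNA helicase, was at 170.1, 150.4 and 158 CPM in sham, 168, 165 and 159 in BDL, 82.5, 95.4 and 88.2 in AAV-GFP and 89.5, 84.2 and 73.1 in AAV-VEGFC, without overlap (-0.89 ± 0.09, adjusted p = 0.000183, and -0.995 ± 0.09, adjusted p = 7.76e-05). Raly was the gene called higher (0.27 ± 0.07, adjusted p = 0.0448, and 0.33 ± 0.07, adjusted p = 0.0137). Of 26 tissue-regulated splicing regulators, 3 were lower with AAV-GFP and 7 with AAV-VEGFC, against the same shares of all genes. Rbm24, a muscle and sensory cell regulator, changed by -0.72 ± 0.11 (adjusted p = 0.00304). Ptbp2, the neuronal polypyrimidine tract protein, changed by -0.33 ± 0.06 (adjusted p = 0.0101), a call lost without BDL 1 or AAV-GFP 3 (0.0595 to 0.0599).

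Of 19 Sm-like and snRNP assembly genes, 0 were called with AAV-GFP by edgeR (3 at an unadjusted p under 0.05, where all genes gave 20.7%). With AAV-VEGFC, Lsm4 and Lsm7 of the Lsm ring were higher (0.41 ± 0.09, adjusted p = 0.0199, and 0.46 ± 0.12, adjusted p = 0.0357) and Gemin5, which picks out snRNAs for assembly, was lower (-0.47 ± 0.10, adjusted p = 0.0168). The Lsm4 and Gemin5 calls were each lost without either of 2 BDL libraries (BDL 1 or 2 at 0.0708 to 0.0765, and BDL 2 or 3 at 0.0588 to 0.0611), and with AAV-VEGFC and BDL fitted alone (0.142 and 0.0837). Of 10 exon junction and decay genes none was called in either comparison by edgeR, where 6.19% and 9.93% of all genes were, and 2 and 4 had an unadjusted p under 0.05, against 20.7% and 29.2% of all genes. Snrpn, outside the rule, was at 19.4, 20.04 and 19.1 CPM in sham, 17.9, 16.3 and 21.8 in BDL, 14.3, 19.7 and 20.99 in AAV-GFP and 11.6, 20.8 and 25.5 in AAV-VEGFC, overlapping in all groups.

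**Figure D5:**
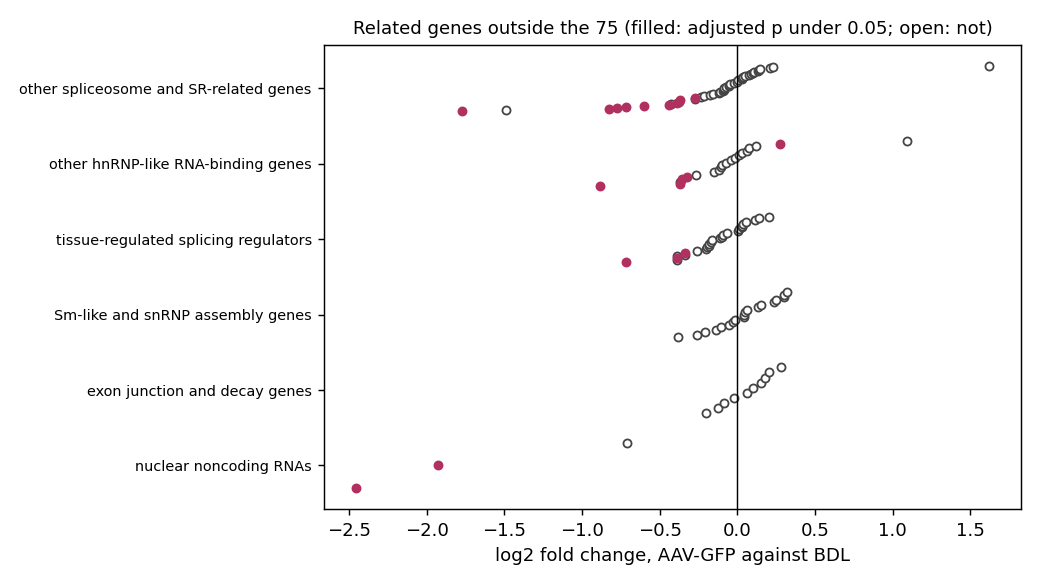
Points are log2 fold changes of AAV-GFP against BDL for 6 lists of related genes outside the 75, filled where the adjusted p was under 0.05. Miat and Snhg11, the filled points of the nuclear noncoding list, lie furthest left, and the exon junction and Sm-like lists have only open points.

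Several measures beyond the protein genes of splicing moved in the same comparisons. Miat, a noncoding RNA kept in the nucleus, was at 484, 374 and 415 CPM in sham, 432, 483 and 379 in BDL, 82.6, 126 and 133 in AAV-GFP and 100.2, 109.6 and 122 in AAV-VEGFC. Its vector libraries were all lower (-1.92 ± 0.18, adjusted p = 0.00011, and -1.96 ± 0.18, adjusted p = 8e-05). Snhg11, a noncoding host of small nucleolar RNAs, changed by -2.45 ± 0.17 (adjusted p = 3.43e-05) and -2.58 ± 0.17 (adjusted p = 2.08e-05). The 3 tested of 13 listed nuclear noncoding RNAs summed to 564 to 719 CPM in the libraries without vector and 121 to 186 CPM in those with it. Miat and Snhg11 were the 2 called lower in each comparison, against 5.2% and 7.02% of all genes. The other 1 was not called, at -0.71 with AAV-GFP and -0.24 with AAV-VEGFC. Rn18s was at 1671, 1641 and 1357 CPM in sham, 1813, 2989 and 1786 in BDL, 4245, 11509.7 and 10599 in AAV-GFP and 7616, 11600.5 and 11882 in AAV-VEGFC, higher with vector (400.0% of the BDL mean with AAV-GFP, adjusted p = 0.00535, and 472% with AAV-VEGFC, adjusted p = 0.00233). The part of these RNAs in the result was not tested. Leaving out Rn18s and Rn45s changes only the scaling and the rows tested, so the unchanged member counts do not bear on it.

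Cell type markers also differed. Of 6 tested endothelial markers, 3 were called higher with AAV-GFP and 4 with AAV-VEGFC, against 0.988% and 2.91% of all genes. None was at 0 in any group. Their summed level was 193 to 217 CPM in sham, 204 to 255 in BDL, 329 to 354 in AAV-GFP and 338 to 394 in AAV-VEGFC. The 7 microglia markers summed to 252 to 294, 293 to 338, 348 to 572 and 327 to 552 CPM in the same order. Microglia sums in AAV-GFP lay above BDL, and those in AAV-VEGFC overlapped it. The 7 astrocyte markers summed to 5708 to 5931, 5636 to 5799, 6258 to 7183 and 5480 to 8068 CPM, so AAV-GFP lay above BDL and AAV-VEGFC overlapped it. Of these markers, 0 were called with AAV-GFP and 1 was called higher with AAV-VEGFC. Sums of the 7 oligodendrocyte markers overlapped BDL in both, at 12291 to 13112, 11280 to 12899, 11176 to 13623 and 11172 to 18828 CPM, with 1 marker called higher in each. Sums of 7 excitatory neuron markers were 5076 to 5284 in sham, 5048 to 5180 in BDL, 4769 to 6554 in AAV-GFP and 5298 to 5554 in AAV-VEGFC. They overlapped BDL with AAV-GFP and lay above it with AAV-VEGFC. The 7 inhibitory neuron markers summed to 813 to 889, 708 to 806, 722 to 943 and 614 to 953 CPM and overlapped BDL in both. Of these, 0 were called with AAV-GFP and 1 was called higher with AAV-VEGFC. No microglia or excitatory neuron marker was called in either comparison. The part of cell composition in the changes of the 75 genes was not tested.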

How the data were processed

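The deposited table held raw counts of reads per gene, for which the authors used the rn6 genome build. The tools named are featureCounts, HISAT2, Trimmomatic 0.36 and FastQC, per the submitters' processing notes. No source used here gives their settings, the annotation, the strand handling or the treatment of reads shared by overlapping genes or near-identical copies. RNA came from frozen brain and libraries from an Illumina TruSeq RNA kit, per the labels' protocols. The table has 17337 rows and 12 library columns, with 0 columns unused, and was tied to the samples through the single-library files, of which 11 hold the same values as a column.

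The members and lists were chosen with earlier results of these data known. Counts were filtered with filterByExpr, scaled by TMM and fitted in edgeR 4.0.16 (R 4.3.3) with 1 mean per group over all 12 libraries, and 4 contrasts were tested by quasi-likelihood F test with Benjamini-Hochberg adjustment over 12850 genes. Fold changes are log2 with SE. Groups stood apart when every value of 1 group lay beyond every value of the other. Alternatives used DESeq2 1.42.0, limma 3.58.1, other filters and fewer libraries. The scripts were tested on simulated data. Counting error is small for well counted genes at 40296297 to 51669067 counts per library, but Hnrnpab had 47 counts in AAV-GFP 3. Chi-square over degrees of freedom between replicates was 11.1 to 214, so no pair agreed within sampling noise.

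Named genes were the called members with the largest changes (8 each way), the 5 smallest p per comparison, a fixed set including the CLK kinases, and 2 genes of each related list. Other members are named to account for the set, except 1 member that is counted but not reported here, and other genes were named after their values were seen. Replicate numbers paired no samples: deviations of same-numbered libraries correlated at -0.209 to 0.139, and 1 of 12 libraries correlated best with its own number. Promoter windows and gene overlaps came from RefSeq on GRCr8, which differs from the build of the counts, and were matched by symbol. Among members called lower with AAV-GFP, 3 overlap a gene with counts (Clk2, Prpf40b and Srsf1).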

Additional observations from a re-analysis of the deposited data

How the results depend on the processing

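With DESeq2 the genes called were 108 in BDL against sham, 1485 in AAV-GFP against BDL, 2362 in AAV-VEGFC against BDL and 10 in AAV-VEGFC against AAV-GFP, where it called 1 member. With voom they were 347, 4687 and 2488 in the first 3 comparisons, and 40 members for AAV-GFP against BDL. Fitting the compared groups alone gave 332, 2023, 330 and 0 genes, and 12 members for AAV-VEGFC against BDL. Without sham 2, AAV-GFP 1 and AAV-VEGFC 1 together, chosen after seeing the data, genes called were 209, 3646, 3123 and 1193, with 30 members for AAV-GFP against BDL and 10 between the vectors. Leaving out 1 library at a time gave 12 to 17, 386 to 859, 586 to 2284 and 0 to 22 genes, and 0, 15 to 17, 16 to 28 and 0 members. The 859 came without AAV-GFP 1, and the 2284 without AAV-VEGFC 1. With the replicate number as a block the counts were 12, 550, 905 and 0 genes and 0, 18, 21 and 0 members. The block ended the Snrnp48 call for AAV-GFP and no other call of a named member. Among the named genes, whose fold changes alone were followed across settings, direction turned for Srsf3 in AAV-VEGFC against BDL, to -0.0272 with voom, -0.0399 without the 3 libraries and -0.0407 without AAV-VEGFC 1, with leave-one-out values from -0.0407 to 0.155. DESeq2 size factors, other filters and removal of abundant rows kept member counts within 1 of those reported. The cause of these differences was not tested. Whether depth limited the named members was not tested, and 3 libraries a group limit the precision.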
